A study of Mus musculus with 8 samples.

Results

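The immunoglobulin kappa chain genes were followed in sorted Sca1+Lin- bone marrow cells of Sca1-MALT1 transgenic mice (5 arrays) and of wild-type mice (3 arrays). All probe sets whose platform symbol is or includes 1 of 10 listed kappa symbols were taken, which gave 23 of the 45037 probe sets that are not controls. Of these, 15 name 1 symbol and 8 are shared by several genes. The list was drawn up with earlier results of these same arrays in view and names genes that were higher in Sca1-MALT1, so the differences between genotypes are given here as a description and without a test. The name of the transgene joins Sca1, a surface marker of blood stem and progenitor cells whose promoter it points to, with MALT1, a signalling protease downstream of antigen receptors that activates NF-kB, and the labels state neither the species nor the part of the gene it carries. On the 3 probe sets of mouse Malt1 the groups overlapped and none passed limma's test over all probe sets (differences of 0.17 to 0.49, adjusted p = 0.544 to 0.958), and whether these read the transgene is not stated. The labels give no second allele or agent in either group, and no age, sex, strain or batch. Total RNA was amplified and hybridised to 1-colour arrays, and the deposited values are log2 signals made by RMA, a method that normalizes arrays by quantiles and gives no detection call.

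An antibody light chain is assembled from a variable (V), a joining (J) and a constant (C) segment. In the kappa locus the recombinases RAG1 and RAG2 cut and join 1 of many V segments to a J segment, and each B cell clone thereby keeps its own V. Small pre-B cells of the bone marrow make this choice, B cells display the product on their surface, and plasma cells, many of which settle in the bone marrow, transcribe the chosen V with the single C segment at very high levels. A probe set that lies in a V segment therefore reads only those clones that chose that V or a close relative of it. One that lies in the C segment reads all kappa transcripts. In which segment a probe set lies was not tested, and its gene name need not tell.

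The 9 listed V genes lie along chromosome 6 in the order Igkv9-120, Igkv14-111, Igkv15-103, Igkv4-72, Igkv4-68, Igkv8-30, Igkv6-20, Igkv6-15 and Igkv6-14, followed by the J segments and Igkc, the C segment. In the RefSeq table they take places from 20 (Igkv9-120) to 148 (Igkv6-14) among 168 annotated kappa segments, of which Igkc is the 168th. Igk, the remaining symbol, names the locus as a whole, and which segment each of its probe sets reads was not tested. Their wild-type means were 4.22 to 8.01, against 13.18 to 13.63 in the 3 probe sets that include Igkc. None of them is therefore taken as a measure of the whole locus. V genes of a family, such as the Igkv6 genes, are close in sequence, and names on the array are less specific than they look. Of 6 source sequences that gave more than 1 kappa probe set, 4 gave probe sets with different gene names, among them the pair Igkv6-14 (1427860_at) and Igkv6-15 (1427859_at). How far a V probe set also binds relatives was not tested, so each value is that of the named probe set.

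Nearly the whole set stood higher in Sca1-MALT1. Of the 23 probe sets, 22 had the higher mean in Sca1-MALT1, with log2 differences of -0.03 to 5.97 and a median of 2.88, against a median of -0.01 over all 45037 probe sets, of which 48.4% were higher. In 18 of the 23 all 5 Sca1-MALT1 arrays lay above all 3 wild-type arrays, 0 lay wholly below, and 5 overlapped. Over all probe sets 3.68% lay wholly above and 3.15% wholly below. Since the list was chosen on this contrast, nothing is read from that comparison. The median difference was 2.95 for the 15 probe sets that name 1 symbol and 2.24 for the 8 shared ones. In these bulk samples more kappa-producing cells and more kappa RNA per cell cannot be told apart.

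**Figure D1:**
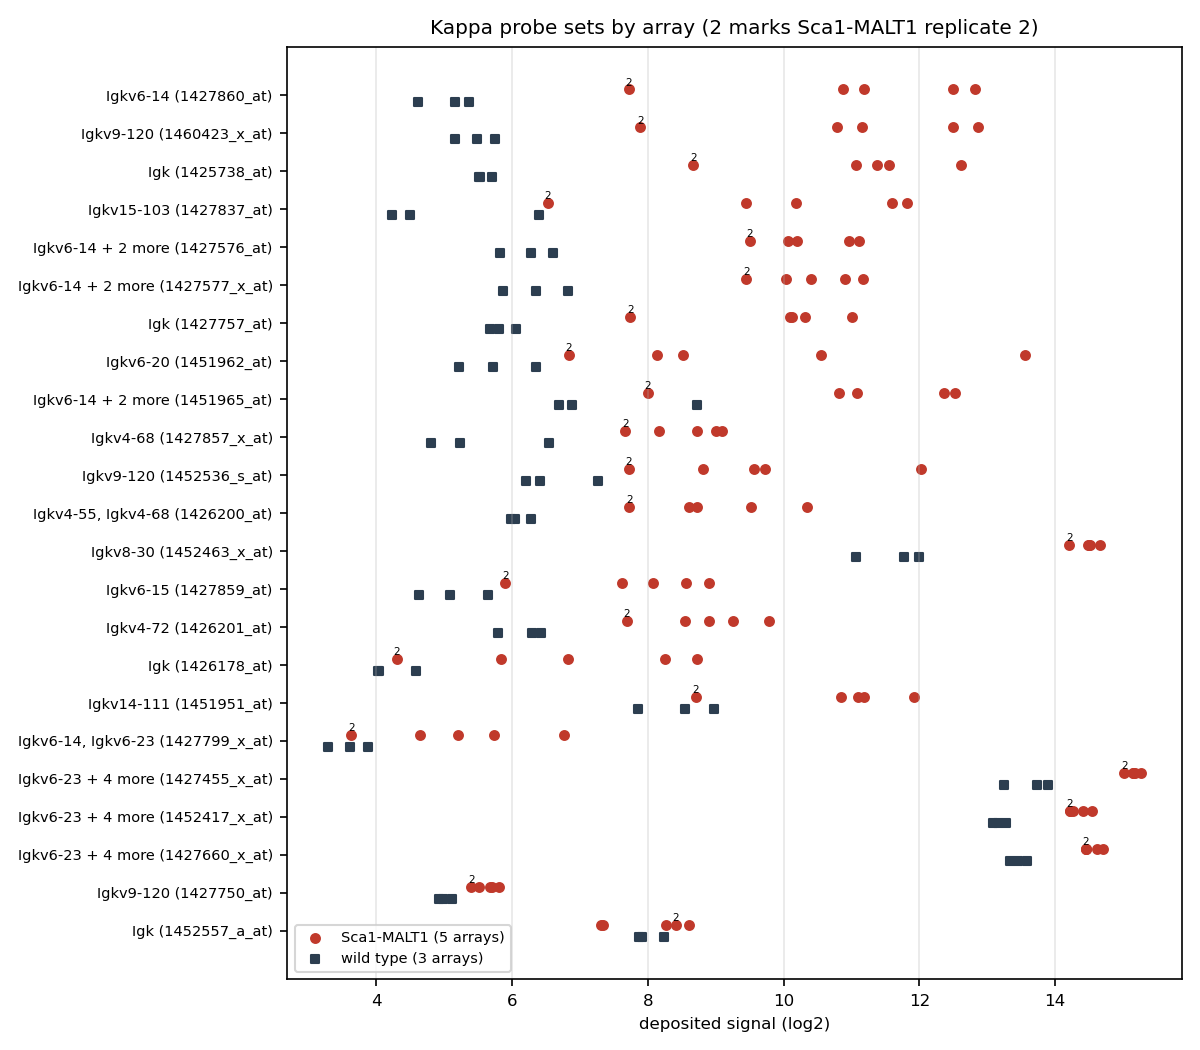
Deposited log2 signal (x axis) of the 23 kappa probe sets (rows) in each of the 5 Sca1-MALT1 arrays (red circles) and the 3 wild-type arrays (dark squares), ordered by the difference of the group means, with Sca1-MALT1 replicate 2 marked 2. Red lies wholly to the right of dark in 18 rows, and replicate 2 is the leftmost red point in 21.

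The largest differences were in V probe sets that read low in wild type. Igkv6-14 (1427860_at) read 12.82, 7.72, 10.88, 11.19 and 12.49 in Sca1-MALT1 replicates 1 to 5, against 5.16, 4.62 and 5.36 in wild-type replicates 1 to 3. The groups did not overlap, and their means were 11.02 ± 2.02 (SD, n = 5) and 5.05 ± 0.38 (n = 3), a log2 difference of 5.97 (SE 1.04). This gene is the listed V nearest to the J segments. For Igkv9-120, the listed V farthest from them, the 3 probe sets disagreed, and the one with the largest difference, 1460423_x_at, came close to Igkv6-14, with 12.87, 7.89, 11.15, 10.78 and 12.50 in Sca1-MALT1 and 5.49, 5.75 and 5.16 in wild type, a difference of 5.57 (SE 1.01). The source sequence of 1460423_x_at also gave the probe set named Igk-V21, as that of 1427860_at gave Igkv6-15, so no position in the locus is read from these names.

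Igkv15-103 (1427837_at) had 11.82, 6.53, 10.19, 9.44 and 11.59 in Sca1-MALT1, against 6.39, 4.23 and 4.49 in wild type, a difference of 4.88 (SE 1.17). The groups only just stayed apart, as Sca1-MALT1 replicate 2 lay 0.14 above wild-type replicate 1, which stood clear of the other two wild-type arrays. A probe set named Igk (1425738_at) read 12.61, 8.67, 11.07, 11.38 and 11.56 in Sca1-MALT1 and 5.51, 5.71 and 5.53 in wild type, a difference of 5.47 (SE 0.75). Here the wild-type arrays spanned 0.20 and the Sca1-MALT1 arrays 3.94, and a gap remained between them. In 15 of the 23 probe sets, these 4 among them, the wild-type mean lay below the lowest array median of 6.40, where RMA values do not separate signal from background, and no fold is given for them.

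Igkv6-20 (1451962_at) was the most uneven among the Sca1-MALT1 arrays. It had 10.55, 6.84, 8.52, 8.14 and 13.55 in Sca1-MALT1 replicates 1 to 5 and 5.72, 6.36 and 5.22 in wild type, a difference of 3.76 (SE 1.35). Replicate 5 stood 3.00 above replicate 1, the next highest. In Igkv6-14 (1427860_at) and Igkv6-15 (1427859_at), of the same V family, replicate 5 lay below replicate 1, by -0.34 and -0.49. Igkv6-15 (1427859_at) read 8.56, 5.90, 7.62, 8.90 and 8.07 in Sca1-MALT1 and 4.63, 5.08 and 5.64 in wild type, a difference of 2.70 (SE 0.63), and was highest in replicate 4. Its groups were 0.26 apart at their closest.

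Igkv4-68 and Igkv4-72, of another V family, varied less among the Sca1-MALT1 arrays (SD 0.60 and 0.78). For Igkv6-14 (1427860_at), Igkv6-15 and Igkv6-20 that SD was 1.17 to 2.62. Among the wild-type arrays Igkv4-68 was the less even, with an SD of 0.90 against 0.38 to 0.57 in those Igkv6 probe sets. Igkv4-68 (1427857_x_at) had 9.09, 7.67, 8.17, 8.73 and 9.0 in Sca1-MALT1, against 4.81, 5.23 and 6.54 in wild type, a difference of 3.01 (SE 0.45). Igkv4-72 (1426201_at) had 9.79, 7.69, 8.55, 8.90 and 9.25 in Sca1-MALT1, against 6.30, 6.42 and 5.80 in wild type, a difference of 2.66 (SE 0.42). Neither probe set had overlapping groups. A probe set shared by Igkv4-55 and Igkv4-68 (1426200_at) differed by 2.88 (SE 0.51), also without overlap.

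Igkv14-111 (1451951_at) was well above the array medians in both genotypes. It read 11.10, 8.71, 10.84, 11.19 and 11.92 in Sca1-MALT1, against 7.85, 8.97 and 8.55 in wild type. Sca1-MALT1 replicate 2 lay inside the wild-type range and the other 4 arrays above it. The difference was 2.30 (SE 0.65), a 4.91-fold higher mean signal.

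Igkv8-30 (1452463_x_at) behaved otherwise, with a narrow spread in Sca1-MALT1. Its values were 14.66, 14.21, 14.48, 14.50 and 14.52 in Sca1-MALT1 and 11.07, 12.00 and 11.78 in wild type, a difference of 2.85 (SE 0.21) or 7.23-fold. The 5 Sca1-MALT1 arrays spanned 0.45 and the wild-type arrays 0.92. Igkv8-30 is also 1 of 5 names of 3 probe sets that include Igkj1 and Igkc, and these were also tight among the Sca1-MALT1 arrays. Of them only 1427455_x_at spanned less in Sca1-MALT1 than in wild type (0.24 against 0.65). The spans were 0.32 against 0.19 in 1452417_x_at and 0.26 against 0.24 in 1427660_x_at. Whether 1452463_x_at reads the V segment of Igkv8-30 alone was not tested, so its difference is not taken as that of a V gene.

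The 3 probe sets that include the constant segment Igkc read near the top of the scale in both genotypes. The first (1427455_x_at) had 15.27, 15.02, 15.14, 15.14 and 15.17 in Sca1-MALT1, against 13.25, 13.90 and 13.74 in wild type, a difference of 1.52 (SE 0.15) or 2.87-fold. The others differed by 1.15 (SE 0.11, 1452417_x_at) and 1.07 (SE 0.11, 1427660_x_at), or 2.22-fold and 2.11-fold. None of the 3 had overlapping groups, and the 5 Sca1-MALT1 arrays spanned 0.24 to 0.32. The highest value of any probe set on any array was 15.41. A limit set by the upper end of the scale was not tested, and these folds are those of the deposited signals. All 3 lay above the 99th percentile of every array, wild type included.

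**Figure D2:**
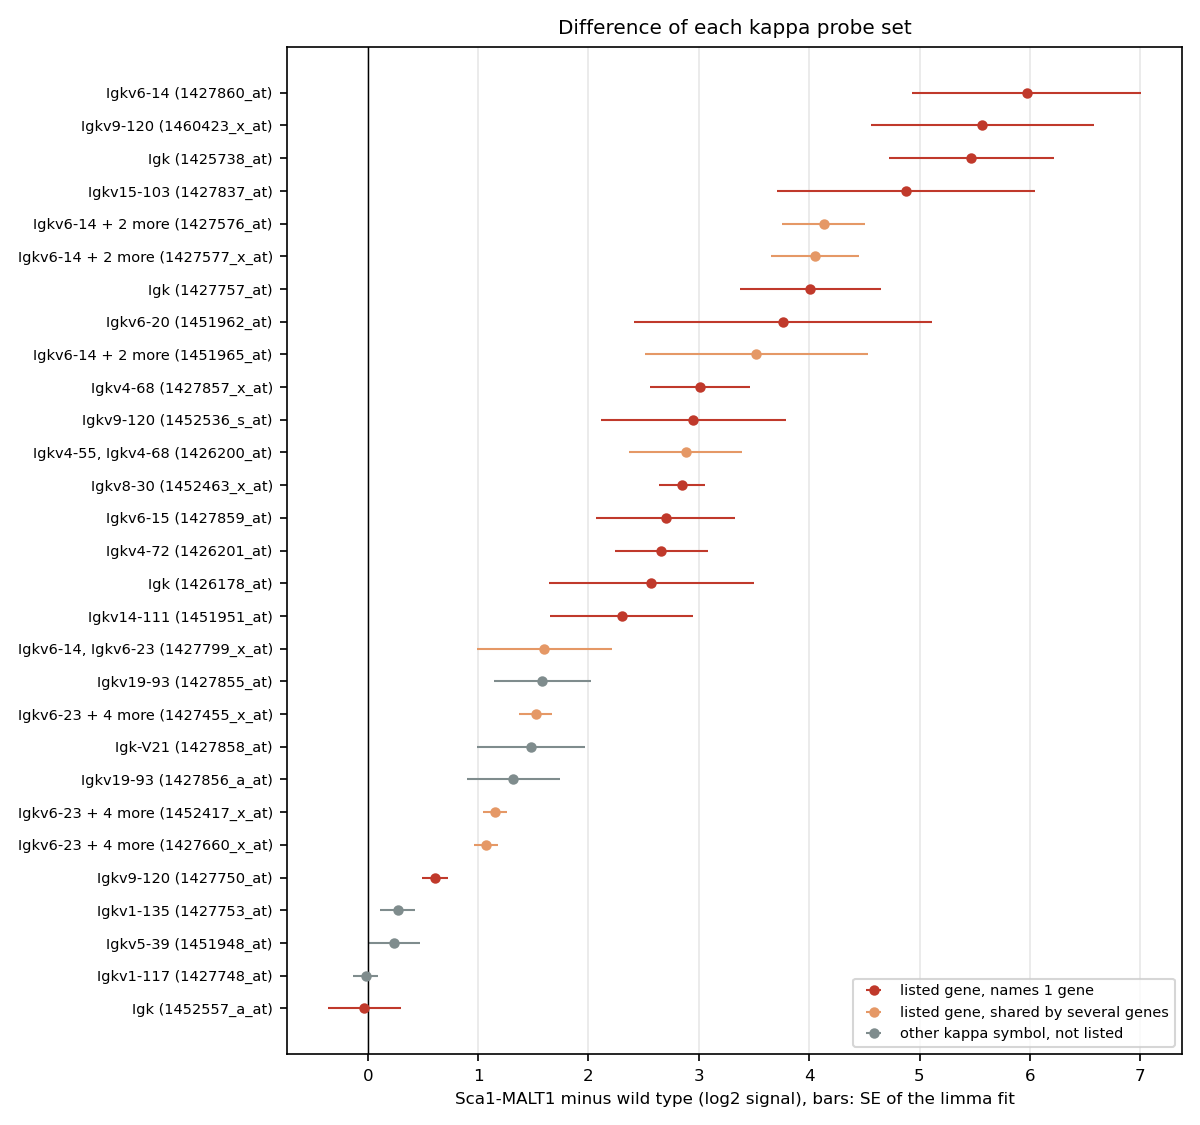
Difference of the group means, Sca1-MALT1 minus wild type, in log2 signal (x axis, bars are the SE of the limma fit) for the 23 kappa probe sets of listed genes, naming 1 gene (red) or shared by several (orange), and for 6 further probe sets with a kappa symbol (grey). The listed ones run from -0.03 to 5.97 and the others from -0.02 to 1.58.

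Probe sets of the same gene disagreed in size. For Igkv9-120 the differences were 5.57 (1460423_x_at), 2.95 (1452536_s_at) and 0.61 (1427750_at). The last of these had means of 5.62 ± 0.16 (n = 5) in Sca1-MALT1 and 5.00 ± 0.10 (n = 3) in wild type, both below the array medians. For Igk they were 5.47 (1425738_at), 4.01 (1427757_at), 2.57 (1426178_at) and -0.03 (1452557_a_at). The probe set 1452557_a_at was the single one with no higher mean, reading 7.31, 8.41, 8.27, 8.60 and 7.34 in Sca1-MALT1 and 7.87, 8.24 and 7.92 in wild type, with overlapping groups. Replicates 1 and 5, the highest in most of the other kappa probe sets, were its lowest Sca1-MALT1 arrays.

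Probe sets that name Igkv6-14 beside other V genes were higher too. With Igkv6-23 and Igkv8-19 as further names, 1427576_at and 1427577_x_at, made from the same source sequence, differed by 4.13 (SE 0.38) and 4.05 (SE 0.40) without overlap. The third of that name, 1451965_at, had 12.36, 8.00, 11.08, 10.82 and 12.52 in Sca1-MALT1, against 6.89, 6.69 and 8.73 in wild type, a difference of 3.52 (SE 1.01). Its groups overlapped, since wild-type replicate 3 exceeded Sca1-MALT1 replicate 2. The dim 1427799_x_at, shared with Igkv6-23, differed by 1.60 (SE 0.61) with overlap, and both its means were below the array medians.

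Kappa symbols that were not on the list had 6 probe sets. These differed by -0.02 to 1.58, and 5 listed probe sets lay below that upper value. Of the 6, 2 were free of overlap and higher in Sca1-MALT1, beside 3.68% of all probe sets. The groups of 1 of these, Igk-V21 (1427858_at), were apart by only 0.01, with both means (5.66 and 4.18) below the array medians. Since the list was chosen for genes that were higher, listed and unlisted symbols are not set against each other. Igkv19-93 (1427855_at) was the highest of them and read 8.58, 8.08, 7.96, 10.03 and 8.32 in Sca1-MALT1, against 6.86, 7.34 and 6.86 in wild type. By limma's test over all 18193 genes, with 1 probe set per gene, none of the 5 unlisted kappa genes passed an adjusted p of 0.05, and 2 had an unadjusted p under 0.05, Igkv19-93 (adjusted p = 0.316) and Igk-V21 at 1.48 (adjusted p = 0.377). Over all genes 5.69% were higher and 4.49% lower with an unadjusted p under 0.05, the background for each such count given here. Igkv1-117, Igkv1-135 and Igkv5-39 differed by -0.02, 0.27 and 0.24. Both means of Igkv1-117 and Igkv1-135 lay below the array medians, as did the wild-type mean of Igkv5-39. Such small differences are therefore not read as a lack of change.

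The spread among arrays differed between dim and bright probe sets. The SD among Sca1-MALT1 arrays exceeded that among wild-type arrays in 19 of 23 probe sets, with medians of 1.17 and 0.34, where the medians over all probe sets were 0.23 and 0.20. In the 15 probe sets whose wild-type mean lay below the array medians, where RMA values do not separate signal from background, the Sca1-MALT1 SD was the larger in 14. In the 8 with both means above the array medians it was larger in 5, equal to 2 decimals in 1 and smaller in 2, with medians of 0.38 in Sca1-MALT1 and 0.41 in wild type. In 13 of the 23 the SD among Sca1-MALT1 arrays was in the top 5% of all probe sets. Replicate 2 was the lowest Sca1-MALT1 array in 21 of 23 probe sets and replicate 1 the highest in 15, replicate 5 in 5 and replicate 4 in 3. The median of the 23 probe sets was 11.11, 7.74, 10.06, 10.13 and 10.96 in Sca1-MALT1 replicates 1 to 5, and 5.86, 6.28 and 6.05 in wild type.

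Replicate 2 accounted for 4 of the 5 overlaps. Without it, 22 of 23 probe sets had all remaining Sca1-MALT1 arrays above all wild-type arrays, beside 6.20% of all probe sets, and the median difference was 3.20. In replicate 2 the signal lay within the wild-type range, or below its top, in 4 probe sets. The share of all probe sets for that single array was not counted, and the list was chosen on this contrast, so nothing is read from it. The distance of replicate 2 above the highest wild-type array was 2.96 in Igk (1425738_at), 2.36 in Igkv6-14 (1427860_at) and 2.21 in Igkv8-30.

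**Figure D3:**
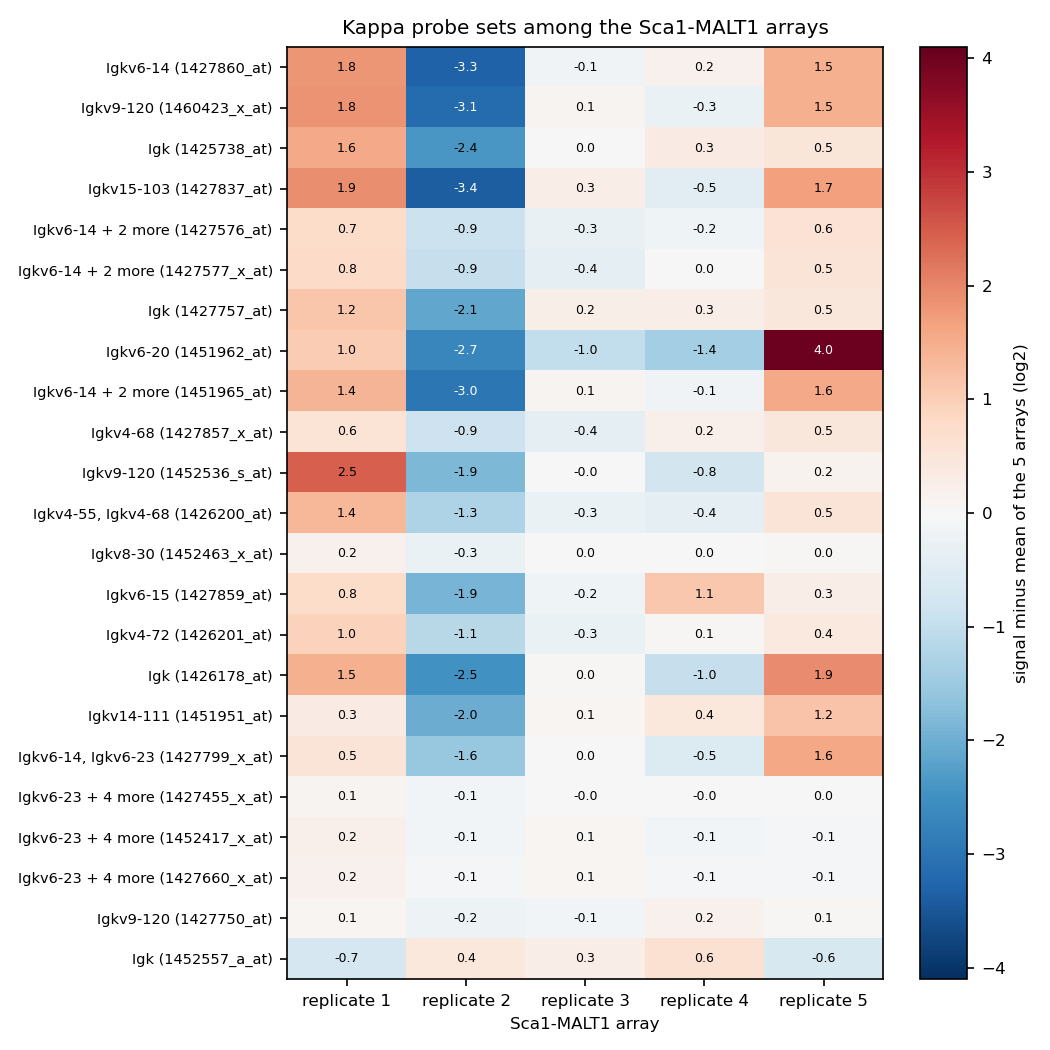
Each of the 23 kappa probe sets (rows) in the 5 Sca1-MALT1 arrays (columns), as log2 signal minus the mean of those 5 arrays, with blue for below and red for above it. Replicate 2 is the lowest in 21 rows, and the cell of Igkv6-20 in replicate 5 stands out from its column.

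The order of the V genes was not the same from array to array. Replicate 5 was below replicate 1 in 17 of 23 probe sets, by up to -2.30 in Igkv9-120 (1452536_s_at). It was above replicate 1 in Igkv6-20 (by 3.00), in the shared 1427799_x_at (by 1.03), in Igkv14-111 (by 0.83), in Igk (1426178_at, by 0.47), in the shared 1451965_at (by 0.16) and in Igk (1452557_a_at, by 0.03). After the mean of each probe set and each array was removed over the 22 probe sets other than 1452557_a_at, Igkv6-20 in replicate 5 was left with 3.18, followed by Igkv15-103 in replicate 2 with -1.76. With 1 array per sample there is no measure of the technical error of such a single value.

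The other kind of light chain, lambda, was read by 4 probe sets. Iglv1, a lambda V gene, did not pass the test (brightest probe set 1447918_x_at, log2 difference 0.66, SE 0.73, adjusted p = 0.809), and its other two probe sets differed by 1.13 and 2.76, all with overlapping groups. A probe set shared by Iglc1 and Iglv1 (1424931_s_at) had 14.59, 11.65, 13.19, 13.76 and 14.46 in Sca1-MALT1, against 9.75, 11.09 and 10.45 in wild type, a difference of 3.10 (SE 0.66). The groups were apart, and as in the kappa genes replicate 1 was the highest and replicate 2 the lowest Sca1-MALT1 array. Whether kappa and lambda differed in their change was not tested.

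Heavy chain constant genes and the J chain, the partners of light chains in secreted antibody, were higher in all 4 genes measured of 10 listed, with a median difference of 3.02. Only Jchain passed, beside 0.044% of all genes that passed in that direction (difference 2.58, SE 0.27, limma adjusted p = 0.0163), a call that was lost in 4 of the 8 fits with an array left out (adjusted p up to 0.0718). The IgA constant gene Igha had 15.38, 15.10, 15.32, 15.27 and 15.32 in Sca1-MALT1, against 12.45, 7.17 and 8.42 in wild type (difference 5.93, SE 0.99, adjusted p = 0.109). Wild-type replicate 1, the highest in Igha, was also the highest wild-type array in Igkv15-103. Among all listed kappa probe sets, however, replicate 1 was the highest wild-type array in only 2 and the lowest in 14. It was also the lowest wild-type array in Jchain (11.18) and in the brightest probe set of Ighm (14.14), and lay between the others in that of Ighg3 (7.65). Ighm, the constant gene of IgM, differed by 0.76 (adjusted p = 0.219) in its brightest probe set (1427351_s_at), which read 15.27 to 15.41 in Sca1-MALT1, near the top of the scale. Over the 11 probe sets of Ighm the differences ran from 0.09 to 6.87. Of these, 9 were free of overlap and higher in Sca1-MALT1, beside 3.68% of all probe sets, and 2 overlapped. Among the 9, the groups were apart by only 0.06 in 1425385_a_at, where Sca1-MALT1 replicates 2 and 4 read 5.94 and 6.21. They were apart by 0.12 in 1427869_at, where both means lay below the array medians. Ighg3, a constant gene of IgG, differed by 3.46 (adjusted p = 0.204) in its brightest probe set and by -0.30, 0.62 and 1.07 in the other 3, which had overlapping groups. Heavy V genes had a single probe set naming 1 symbol, that of Ighv14-2, with 7.97 ± 0.70 (n = 5) in Sca1-MALT1 and 9.54 ± 0.59 (n = 3) in wild type (difference -1.56, adjusted p = 0.298). Probe sets that name heavy V genes beside constant genes stood higher. The one for Ighv1-72 with Ighm (1427851_x_at) differed by 4.32 without overlap. Those for Ighv14-2 with Ighg3 and Ighm differed by 1.27, 0.65 and 0.44, and in all 3 both means lay below the array medians. The first of these had overlap, and the groups of the others were apart by only 0.07 and 0.09.

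Among genes that act before a kappa chain is made, 4 fell and the others did not pass. Of the 3 measured surrogate light chain genes, which stand in for the light chain in pre-B cells, Vpreb1 and Igll1 fell, beside 0.044% of all genes that passed in that direction, and Vpreb3 did not pass (-1.20, adjusted p = 0.594). Vpreb1 had 5.29, 7.18, 5.12, 5.59 and 5.73 in Sca1-MALT1 and 11.58, 10.59 and 11.82 in wild type, a difference of -5.55 (SE 0.48, adjusted p = 0.00596). Its highest Sca1-MALT1 array was replicate 2, the lowest in most kappa probe sets. The other Sca1-MALT1 arrays lay below the array medians, where RMA values do not separate signal from background. Igll1 was also highest in replicate 2 (7.24), but Vpreb3 was highest in replicate 1 (10.15) and lowest in replicate 2 (7.21). Igll1 differed by -3.92 (SE 0.24, adjusted p = 0.00228) in its brighter probe set and by 0.22 in the dimmer.

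Of 10 genes of V(D)J recombination measured, Rag1 and Rag2 fell, 8 did not pass, and 9 were lower, with a median of -0.79. Rag1 read 5.28, 6.29, 4.65, 4.67 and 4.37 in Sca1-MALT1 and 11.13, 9.91 and 11.76 in wild type (difference -5.88, SE 0.52, adjusted p = 0.00596), with no overlap. Its Sca1-MALT1 values all lay below the array medians, with replicate 2 the highest. Among the other named genes of this list, Dntt was also highest in replicate 2, Rag2 in replicate 1 and Xrcc6 in replicate 5. Rag2 differed by -2.46 (SE 0.30, adjusted p = 0.0374), a call that was lost in 7 of the 8 fits with an array left out (adjusted p up to 0.131). Dntt, which adds bases at the joints, stood at -3.71 (adjusted p = 0.295) and the end-binding factor gene Xrcc6 at -1.0 (adjusted p = 0.127).

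Transcription factors that act on the kappa locus showed no common direction. Of 19 measured, none passed by limma's test, 3 higher and 4 lower genes had an unadjusted p under 0.05, and the median was -0.15. The coactivator Pou2af1, which binds with octamer factors at immunoglobulin promoters, had 12.46 ± 0.73 (n = 5) in Sca1-MALT1 and 11.28 ± 0.44 (n = 3) in wild type (difference 1.18, adjusted p = 0.383). Irf4, which binds the kappa 3' enhancer, differed by 1.74 (adjusted p = 0.347) and the NF-kB subunit Rela by 0.44 (adjusted p = 0.364). On the other side were Spib at -2.21 (adjusted p = 0.180), Pax5, the B lineage commitment factor, at -1.16 (adjusted p = 0.204), Tcf3 at -0.78 (adjusted p = 0.224) and Ebf1 at -2.28 (adjusted p = 0.339). Pou2af1 and Irf4, named beyond the rule for naming genes along with Rela, were highest in Sca1-MALT1 replicate 1 and lowest of that group in replicate 2, as most kappa probe sets were. Rela was also lowest in replicate 2 but highest in replicate 4. Spib and Ebf1 were highest in replicate 1 and lowest in replicate 4, Pax5 was highest in replicate 5 and Tcf3 in replicate 4.

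Of the 15 genes for folding and export of light chains, 13 were higher, none passed, and 9 had an unadjusted p under 0.05, all higher (5.69% of all genes), with a median of 0.62. The disulphide isomerase family gene Txndc5 had 13.58, 11.64, 12.09, 12.58 and 12.30 in Sca1-MALT1, against 10.02, 10.34 and 9.90 in wild type (difference 2.35, SE 0.39, adjusted p = 0.109). Mzb1, an endoplasmic reticulum protein that assists IgM assembly, differed by 1.56 (adjusted p = 0.320), the chaperone Hsp90b1 by 0.78 (adjusted p = 0.209) and Erp44, which retains unfinished IgM, by 0.65 (adjusted p = 0.271).

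The 6 genes outside the kappa locus whose profile over the 8 arrays lay nearest to the mean of the 15 single-symbol kappa probe sets were Tnfrsf17, Cacna1h, Spag6, Pls1, Rhpn2 and Edem1. Likeness was the root mean square distance between profiles, each centred on its own mean, which was 0.32 to 0.43 for these genes against a median of 1.78 over 18178 genes. Tnfrsf17, a survival receptor of plasma cells, was the nearest. It read 10.28, 6.90, 8.19, 8.10 and 9.44 in Sca1-MALT1, against 4.93, 5.40 and 5.31 in wild type (adjusted p = 0.192). The calcium channel gene Cacna1h had 8.63, 6.56, 7.48, 8.27 and 8.49 in Sca1-MALT1, against 4.73, 5.10 and 4.87 in wild type (adjusted p = 0.073). None of the 6 passed the test in this fit. Since they were chosen for their likeness over the same arrays, nothing is read from the order of arrays they share with the kappa genes.

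**Figure D4:**
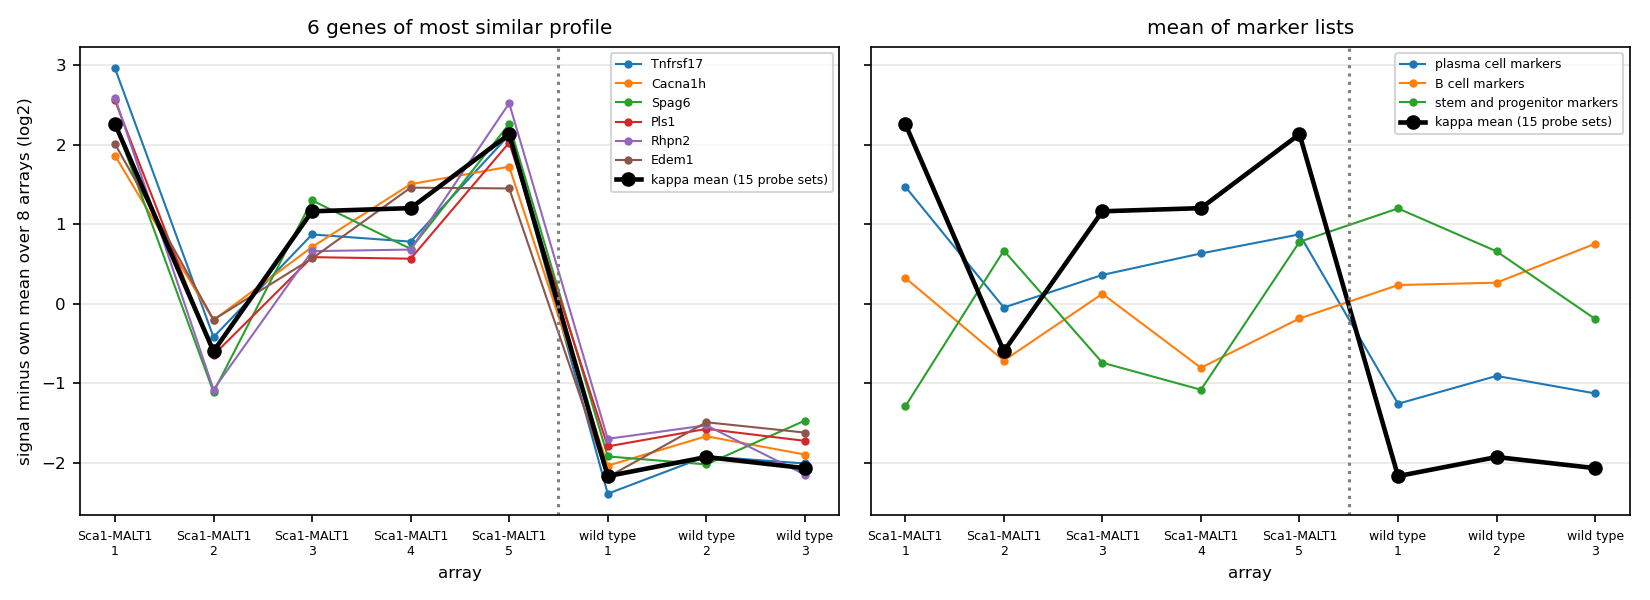
Log2 signal minus its own mean over the 8 arrays (y axis) for the mean of the 15 kappa probe sets that name 1 symbol (thick black line), with the 6 genes of most similar profile (left) and the means of 3 marker lists (right), in the 5 Sca1-MALT1 arrays and then the 3 wild-type arrays. Kappa and plasma cell markers are both lowest of the Sca1-MALT1 arrays in replicate 2 and highest in replicate 1.

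Markers of plasma cells stood higher as the kappa genes did. Of 16 plasma cell markers, 3 of which (Jchain, Irf4 and Mzb1) are also in lists described above, 15 were higher, with a median of 1.71 against 0.00 over all genes, 1 passed (Jchain), and 14 higher genes and 1 lower had an unadjusted p under 0.05, beside 5.69% and 4.49% of all genes. The lower one was Cd93 (-1.18, adjusted p = 0.271), named after its values were seen, as the single exception. The mean signal of the list was 11.64, 10.12, 10.53, 10.80 and 11.04 in Sca1-MALT1 replicates 1 to 5, against 8.91, 9.26 and 9.04 in wild type (exact two-sided permutation p = 0.0179, the smallest that 5 against 3 arrays can give, and 0.179 after Benjamini-Hochberg adjustment over 10 such measures). The kappa mean over 15 probe sets was 10.55, 7.69, 9.45, 9.49 and 10.42 in Sca1-MALT1 and 6.12, 6.36 and 6.22 in wild type, so both put the Sca1-MALT1 arrays in the same order. The order was not the same in another summary of the kappa genes. The median of the 11 probe sets that name 1 V gene was 11.1, 7.69, 9.56, 8.9 and 11.59 in Sca1-MALT1 replicates 1 to 5. There replicate 5 was the highest and replicate 3 lay above replicate 4, while replicate 2 was again the lowest. With 5 arrays these orders are a description. The part of plasma cells in the kappa signal was not tested.

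Markers of B cells did not stand higher. Of 14 measured 12 were lower, none passed, and 3 lower genes had an unadjusted p under 0.05 (4.49% of all genes), with a median of -0.80. Their mean signal lay between 8.79 and 9.92 in Sca1-MALT1 and between 9.83 and 10.35 in wild type (exact permutation p = 0.125, adjusted 0.357). The surface B cell genes Cd79b and Ms4a1 (Ms4a1 named beyond the rule) averaged 11.31 and 11.50 in Sca1-MALT1, against 12.35 and 12.55 in wild type.

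Other cell types were checked in the same arrays, and no gene of their lists passed by limma's test. At an unadjusted p under 0.05 their counts stand beside 5.69% of all genes for higher and 4.49% for lower. Erythroid markers were higher in 9 of 9 measured genes (median 0.63, 3 with an unadjusted p under 0.05; mean signal 9.94 to 10.98 in Sca1-MALT1 and 9.52 to 9.81 in wild type, exact permutation p = 0.0357, adjusted 0.179). T cell markers were higher in 10 of 11 (median 0.59, 3 with an unadjusted p under 0.05, exact permutation p = 0.143) and NK cell markers in 5 of 9 (median 0.74, 2 higher and 1 lower with an unadjusted p under 0.05, exact permutation p = 0.679). Lower in most genes were markers of neutrophils (8 of 10, median -0.88, 0 with an unadjusted p under 0.05), of monocytes and macrophages (7 of 9, median -0.47, 2 lower with an unadjusted p under 0.05) and of stem and progenitor cells (9 of 11, median -1.06, 4 lower with an unadjusted p under 0.05). The part of these cells in the kappa differences was not tested.

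The sorted fraction is labelled positive for Sca1 and negative for lineage markers. Ly6a, the gene of Sca1, was not analysed here. Kit and Cd34, genes of stem and progenitor cells, averaged 9.52 and 8.48 in Sca1-MALT1 and 10.11 and 10.63 in wild type, above the array medians of 6.40 to 6.48, and so did genes of mature cells such as S100a8 (13.93 in Sca1-MALT1, 14.74 in wild type). Arrays correlated with one another at 0.956 to 0.983 over all genes. The 3' minus 5' signal of the Gapdh control probe sets, a sign of RNA quality, was 2.25 to 3.20 in Sca1-MALT1 and 2.70 to 2.92 in wild type (exact permutation p = 0.607), and that of beta-actin 1.25 to 2.49 in Sca1-MALT1 and 1.45 to 2.14 in wild type (exact permutation p = 0.679).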

How the data were processed

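The authors' deposited log2 values came from RMA, per the submitters' processing notes. Which software and version were used, how probe sets were defined and which arrays were normalized together is not given in the sources used here. That the scale is log2 was inferred from the range of 2.73 to 15.41. The values were used unfiltered and as deposited, and the number of arrays limits the precision.

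Of 45101 probe sets, 64 control probe sets were left out. The platform annotation gave 34945 probe sets 1 gene symbol and 932 several, and 9160 were not listed. Current symbols and the order of kappa segments came from a RefSeq table (GRCm38.p6), joined on Entrez number, and no coordinates were taken. The RefSeq sequence table used here held no kappa entry, so no sequence is shown. Kappa probe sets were read singly. Other genes (18193 in all) were represented by their brightest probe set, by the mean of the 8 arrays.

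Sca1-MALT1 was compared with wild type in limma 3.58.1 (R 4.3.3, lmFit and eBayes, genotype as the only term), over all 45037 probe sets or all 18193 genes, two-sided, with Benjamini-Hochberg adjustment and a threshold of 0.05. The fit was tested on simulated data. No p is given for a kappa gene of the list. Single values per array were compared by an exact permutation test. Differences are Sca1-MALT1 minus wild type, SE is from the limma fit, and group values are mean ± SD. Nothing states that samples came from separate animals, and the spread that p-values measure may be technical.

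The kappa list, the other gene lists and the rule for naming genes were chosen with earlier results of these data known. Named were every kappa probe set of the list, up to 4 genes per list with the lowest unadjusted p, any gene past the threshold, and the 6 genes of nearest profile; others are named where the text says so. Replicate numbers occur in both groups, and the correlation of deviations from the group means was -0.22, -0.04 and 0.01 for numbers 1 to 3, so samples share only a number.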

Additional observations from a re-analysis of the deposited data

Results flagged for a closer look

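Among the 5 Sca1-MALT1 arrays, 3 of 73 measures had 1 array far from the other 4, by Dixon's ratio of the gap to the whole range (critical value 0.71). Chance flags about 1 in 20 such groups, and the measures share arrays. Igk (1427757_at) had a ratio of 0.719, with replicate 2 at 7.74 and the other arrays at 10.09 to 11.01. The mean of the T cell markers (0.727) was lowest in replicate 4, at 8.76 against 9.68 to 10.02. The beta-actin 3' minus 5' signal (0.774) was highest in replicate 5, at 2.49 against 1.25 to 1.53, and replicate 5 was also the array in which Igkv6-20 stood out. The part of RNA quality in that value was not tested.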

How the results depend on the processing

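The median difference of the kappa probe sets stayed between 2.54 and 3.20 with each array left out, and between 2.83 and 2.98 under the other settings (normalized again, centred, filtered, another variance model, blocked by replicate number, 1-symbol probe sets alone). The single probe sets moved by less than their SD in all 112 fits under the other settings. Of these settings, the filter and the variance model cannot change a difference. With an array left out the move was below the SD in all 184 fits. With groups of 5 and 3 arrays a larger move is not possible, so nothing is read from that count. The filter on dim probe sets kept 20 of 23. Counts of genes past the threshold outside the kappa list were less stable. They were 7 higher and 8 lower as reported, 16 higher with arrays centred on the median, and 2 to 22 higher and 5 to 10 lower with each array left out. The 22 came without Sca1-MALT1 replicate 2. Among them were 4, 2 and 2 higher genes without Sca1-MALT1 replicates 1, 3 and 5, 3 without replicate 3 of wild type, and 15 higher when Sca1-MALT1 replicate 4 was left out. Over probe sets 10 were higher and 11 lower, 19 and 7 after the filter on dim probe sets, and 2 to 32 and 3 to 13 with each array left out. With the replicate block, on the 6 arrays whose numbers both groups share, limma called 0 higher and 0 lower genes (2034 with an unadjusted p under 0.05) and 1 higher and 0 lower probe sets; that fit has fewer arrays. Jchain lost its call in the fits that lacked wild-type replicate 3 or Sca1-MALT1 replicate 1, 3 or 5 (adjusted p up to 0.0718). Igha passed when replicate 1 of wild type was left out (7.48, adjusted p = 0.000419), and Cacna1h, Spag6 and Edem1 passed without Sca1-MALT1 replicate 2. The T cell marker mean differed by 0.51 to 0.82 with an array left out, with a p of 0.0286 without Sca1-MALT1 replicate 4, and the erythroid mean by 0.62 to 0.87, with p of 0.0571 to 0.0952. No alternative probe set definitions could be tried, and signal over background was not measured.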
